A study of Mus musculus with 2 samples.

Results

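The IGF1 and IGF-binding protein genes were 8 of the 31054 features of the count matrices, taken by their symbols: Igf1, Igf1r, Igfbp2, Igfbp3, Igfbp4, Igfbp5, Igfbp6 and Igfbp7. Single-cell RNA sequencing (10x Genomics 3' chemistry) was done on the bladder of 1 male mouse aged 25 months with the genotype p16-CreERT2/R26-LSL-tdTomato. In this mouse a tamoxifen-inducible Cre is driven by p16, the Cdkn2a product that halts the cell cycle and serves as a mark of senescent cells, and Cre switches on a tdTomato reporter. Tamoxifen was injected on 5 consecutive days, the bladder was taken 2 weeks later, and live cells lacking CD45, a leukocyte antigen, were separated by their tdTomato signal into 2 libraries, Tom+ and Tom-. The 2 groups therefore shared the animal, its alleles, its age and the tamoxifen, and differed by the sort.

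Igf1 encodes insulin-like growth factor 1, a secreted ligand that signals for growth and survival through the receptor tyrosine kinase encoded by Igf1r. The IGF-binding proteins are secreted partners that hold the ligand in the tissue, keep it from the receptor or carry it there, and proteases release it from them; Igfbp7 binds it only weakly. Several of the binding proteins are often listed among the products that senescent cells secrete.

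With 1 library per group nothing here could be tested against the spread between animals or replicates, and every interval covers counting error only. The Tom+ library held 2783 barcodes with 34455896 unique molecular identifiers (UMIs, each 1 tagged transcript), and the Tom- library 13551 barcodes with 197232860. Filters and doublet removal left 1883 Tom+ cells at a median of 11601 UMIs and 9905 Tom- cells at 12772. The reporter transcript followed the sort. In CPM, the UMIs of a gene scaled to a common total of UMIs per class and library, it reached 1781 in Tom+ against 18.3 in Tom- fibroblast-like cells, although 618 of 3967 Tom- cells of this class held a tdTomato UMI. Cdkn2a was sparse, at 38 UMIs (5.85 CPM) in Tom+ and 64 UMIs (1.44 CPM) in Tom- fibroblast-like cells. Over all barcodes it did not differ in this way, at 3.63 CPM (125 UMIs, Tom+) and 3.77 CPM (744 UMIs, Tom-). The ratio of Tom+ to Tom- there was 0.962 (0.789 to 1.16). The libraries shared 966 barcodes, and of the 209 used in both, 187 fell into the same class in both, so results that rest on them are given with and without them. Classes were named from marker genes; the named ones that reached 50 cells in both libraries numbered 6, namely fibroblast-like (725 Tom+ and 3967 Tom- cells), umbrella urothelial-like (417 and 1476), blood endothelial-like (174 and 689), mesothelial-like (158 and 772), basal or intermediate urothelial-like (125 and 468) and lymphatic endothelial-like (89 and 197). Not compared were smooth muscle-like cells (1 Tom+ and 62 Tom-), a Car3 Dkk2 Tnc stromal class (34 and 1240), an unnamed cluster led by Angptl7 and MHC class II genes (58 and 175), and clusters that were shallow or present almost only in Tom-. Against the tissue label, 14 Tom+ and 355 Tom- cells carried markers of prostate or seminal vesicle epithelium, organs next to the bladder.

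The 8 genes lie on 6 mouse chromosomes in the GRCm38 annotation. Igf1 lies at chr10:87858265-87937042 on the plus strand and Igf1r at chr7:67952827-68233668 on the plus strand. Igfbp2 (chr1:72824503-72852474, plus strand) and Igfbp5 (chr1:72857932-72874884, minus strand) are neighbours whose 3' ends face each other over 5.457 kb. Igfbp3 (chr11:7206086-7213923, minus strand) faces Igfbp1 in the same way over 3.539 kb, while Igfbp4 lies elsewhere on that chromosome (chr11:99041244-99054392, plus strand). Igfbp6 lies at chr15:102144362-102149511 on the plus strand and Igfbp7 at chr5:77349240-77408041 on the minus strand. The 250 bases before the RefSeq start are shown for Igfbp5, Igfbp2 and Igfbp3, the genes whose levels differed by at least 1.5 times between Tom+ and Tom- fibroblast-like cells (GRCm38.p6; chr1:72874866-72875115 minus, chr1:72824230-72824479 plus and chr11:7213924-7214173 minus). Capitals mark 3 short motifs searched on both strands. The first, TATNNA, was chosen after the sequences were seen and is held by 56.2% of 32851 mouse promoter windows of this length. The second, CCAAT, is held by 33.8% of them, and the third, GGGCGG, by 32.7%.
Igfbp5: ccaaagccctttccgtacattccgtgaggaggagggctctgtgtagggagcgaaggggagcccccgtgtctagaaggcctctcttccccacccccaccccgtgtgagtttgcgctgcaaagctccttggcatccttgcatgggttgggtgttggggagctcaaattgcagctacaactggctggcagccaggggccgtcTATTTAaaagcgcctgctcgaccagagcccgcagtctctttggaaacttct
Igfbp2: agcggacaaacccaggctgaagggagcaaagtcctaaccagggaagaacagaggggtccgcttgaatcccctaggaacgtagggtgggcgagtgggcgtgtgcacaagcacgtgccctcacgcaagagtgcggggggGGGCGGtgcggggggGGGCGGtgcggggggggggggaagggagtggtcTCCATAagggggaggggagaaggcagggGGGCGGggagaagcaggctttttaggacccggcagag
Igfbp3: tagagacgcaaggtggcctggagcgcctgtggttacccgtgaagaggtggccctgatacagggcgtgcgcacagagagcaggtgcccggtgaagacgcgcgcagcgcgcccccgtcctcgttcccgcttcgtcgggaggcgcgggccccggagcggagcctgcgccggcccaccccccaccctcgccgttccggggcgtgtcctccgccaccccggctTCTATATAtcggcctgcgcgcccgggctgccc
The Igfbp5 window held TATNNA 51 bases before the start and neither of the other motifs. Igfbp2 held TATNNA once, 65 bases before the start, and GGGCGG 3 times, and Igfbp3 held overlapping TATNNA matches from 32 bases before the start. These matches describe the sequence and say nothing about which factors bind it.

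Across the bladder each gene had its own distribution, with the ligand lowest in both urothelial classes. Igf1 was highest among the compared classes in fibroblast-like cells, at 136 CPM (Tom+) and 112 CPM (Tom-). Blood endothelial-like cells held 40.5 and 21.5 CPM of Igf1, lymphatic endothelial-like cells 24.5 and 20.8 CPM, and mesothelial-like cells 14.5 and 19.1 CPM. Urothelial-like cells were close to empty: 0.194 CPM (Tom+) and 0.384 CPM (Tom-) in umbrella cells, where 0.719% and 1.22% of cells held a UMI at median depths of 37617 and 38518.5 UMIs. In fibroblast-like cells that share was 32.4% in Tom+ and 33.8% in Tom- with shallower medians (7760 and 10889 UMIs). Igf1os, the antisense gene at this locus, had 1 UMI in each library.

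Igf1r was the most even of the 8. It ranged over the compared classes from 70.1 CPM in mesothelial-like to 133 CPM in blood endothelial-like cells in Tom+, and from 85.8 to 170 CPM in the same classes in Tom-. Smooth muscle-like cells, of which Tom- alone had more than 1, stood above all of these at 283 CPM. With each cell thinned to 2000 UMIs, Igf1 was seen in 16.3% (Tom+) and 13.0% (Tom-) of the fibroblast-like class. Igf1r was seen in 22.6% and 21.6%. Both were seen in 3.41% in Tom+ (22 of 645 cells) and in 2.41% in Tom- (91 of 3783 cells). Since each transcript alone was seen in a minority of cells at this depth, the joint shares cannot tell whether ligand and receptor lie in separate cells.

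**Figure D1:**
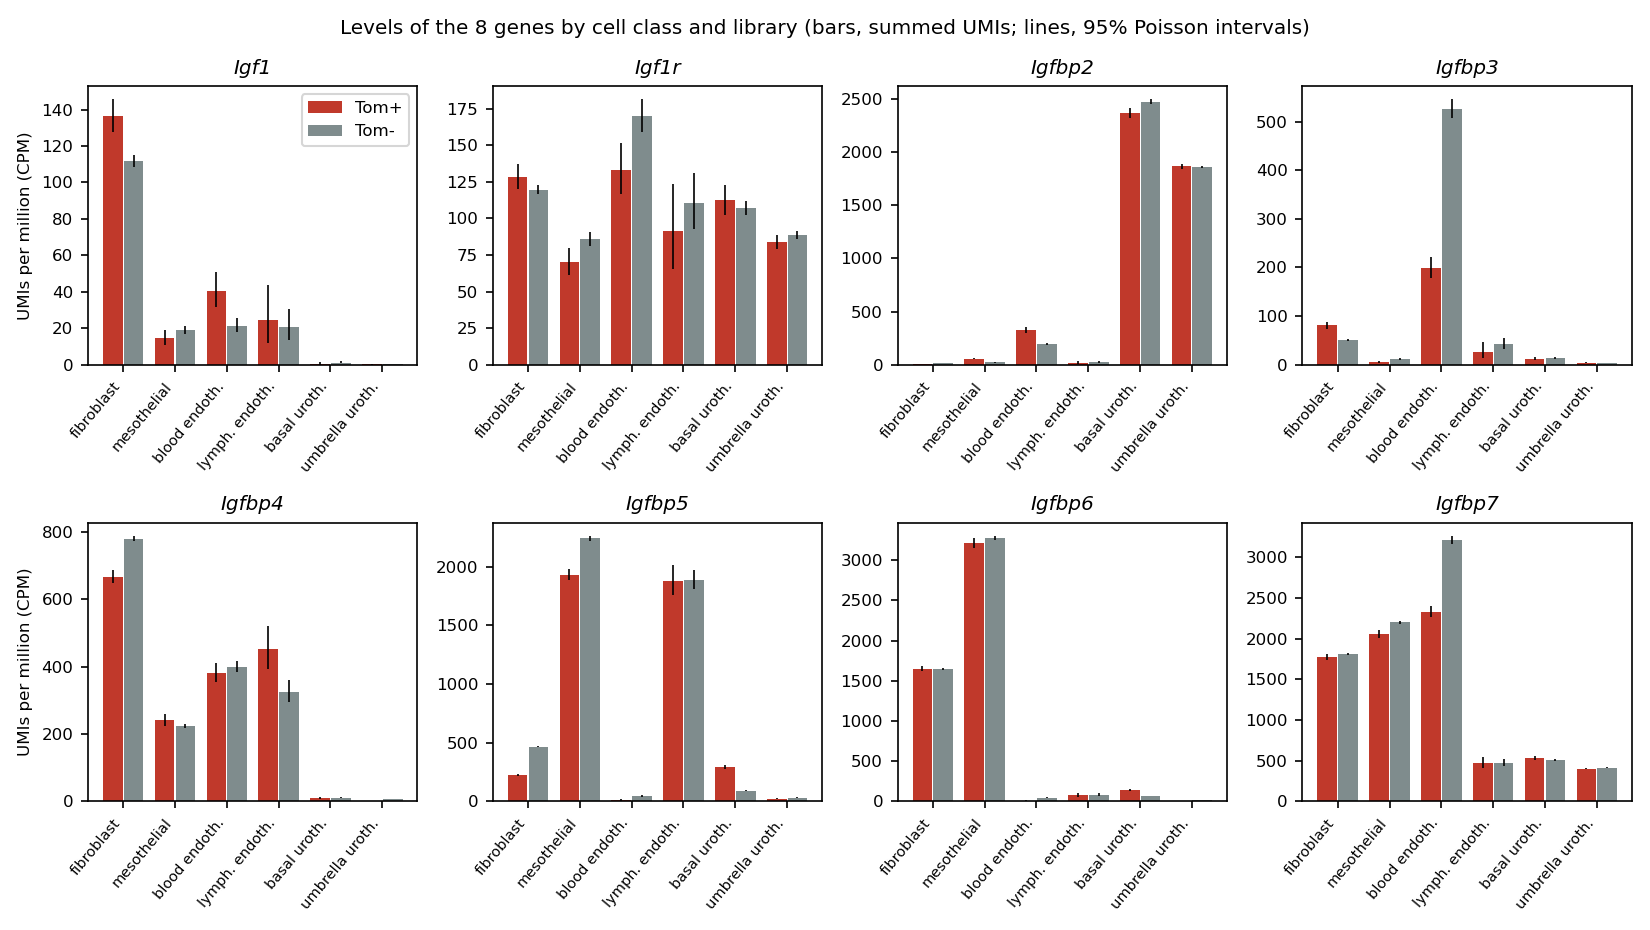
CPM of each of the 8 genes (vertical axes, linear, each from 0) in the 6 compared classes, with Tom+ left of Tom- and 95% Poisson intervals of the summed UMIs as lines. Igf1 and Igfbp4 peak in fibroblast-like cells, Igfbp2 in both urothelial classes, Igfbp3 in blood endothelial-like cells, Igfbp5 in mesothelial-like and lymphatic endothelial-like cells, and Igfbp6 in mesothelial-like cells.

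The binding proteins peaked in different classes. Igfbp2 was the urothelial one, at 2368 CPM (Tom+) and 2473 CPM (Tom-) in basal or intermediate urothelial-like cells and 1865 and 1859 CPM in umbrella urothelial-like cells, where it was seen in 100% and 99.0% of cells. Among the compared classes Igfbp3, the main serum carrier of IGF1, was highest in blood endothelial-like cells at 199 CPM (Tom+) and 526 CPM (Tom-). Igfbp4, generally described as an inhibitor of IGF1 that the protease Pappa cleaves, was highest among them in fibroblast-like cells (667 and 781 CPM). Igfbp5, which also binds extracellular matrix, stood at 1932 and 2241 CPM in mesothelial-like and at 1882 and 1889 CPM in lymphatic endothelial-like cells. The unnamed Angptl7 cluster reached 2392 CPM of Igfbp5 in Tom+ and 1339 CPM in Tom-.

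Igfbp6, which prefers IGF2 over IGF1, was highest in mesothelial-like cells at 3216 CPM (Tom+) and 3276 CPM (Tom-), followed by fibroblast-like cells at 1647.5 and 1647.2 CPM. Igfbp7 was the broadest binding protein, with 402 CPM (Tom+) and 412 CPM (Tom-) in umbrella urothelial-like cells at the low end and 2330 and 3214 CPM in blood endothelial-like cells at the high end. Tom- smooth muscle-like cells had 5719 CPM of Igfbp7. Among named classes with at least 50 Tom- cells, smooth muscle-like cells included and unnamed clusters not, the class with the highest Tom- level was the same for 8 of 8 genes under each of the 4 alternatives tried. A shallow unnamed cluster led by Coch and Rorb (48 Tom+ and 105 Tom- cells, of which 48 and 92 had barcodes found in both libraries) held 867 CPM (Tom+) and 815 CPM (Tom-) of Igfbp4. Its Igf1 was 114 and 124 CPM and its Igfbp3 294 and 349 CPM.

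Read as shares of the UMIs of the 6 binding proteins, each class had its own mixture. Igfbp2 made up 81.2% of them in Tom+ and 79.9% in Tom- umbrella urothelial-like cells. Fibroblast-like cells divided them mainly between Igfbp7 (40.3% in Tom+ and 37.8% in Tom-) and Igfbp6 (37.4% and 34.5%), with Igfbp4 at 15.2% and 16.4%. Igfbp5 was 5.08% of them in Tom+ against 9.79% in Tom- fibroblast-like cells. Lymphatic endothelial-like cells were dominated by Igfbp5 (64.3% in Tom+ and 66.6% in Tom-) and blood endothelial-like cells by Igfbp7 (71.6% and 72.5%). A 3' UMI counts each molecule irrespective of its length, but capture may still differ between genes.

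**Figure D2:**
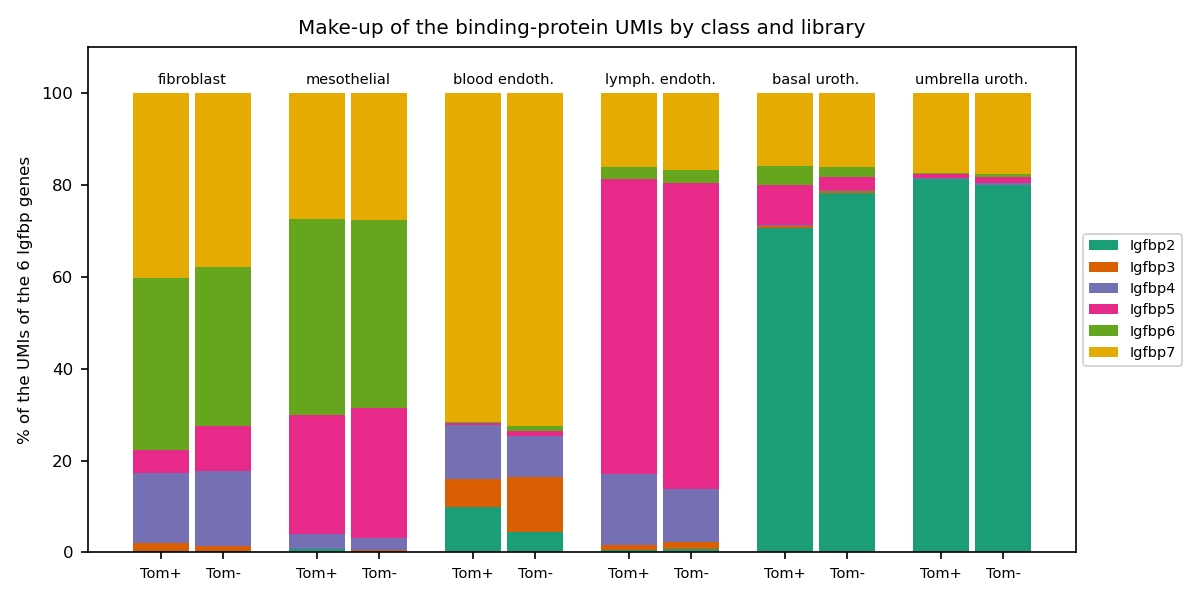
Share of the UMIs of the 6 binding-protein genes (vertical axis, percent) taken by each gene in each class, with the Tom+ bar left of the Tom- bar. Igfbp2 takes most of the urothelial bars and Igfbp7 most of the blood endothelial-like ones, and Igfbp5 takes 5.08% in Tom+ and 9.79% in Tom- fibroblast-like cells.

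In fibroblast-like cells, the cell type named in the title of the series, Igfbp5 and Igfbp2 were lower and Igfbp3 was higher in Tom+ by at least 1.5 times, and the other 5 genes lay between. All 8 were measured (at least 10 CPM in 1 library and 20 UMIs over both), but Igfbp2 reached 10 CPM in Tom- only, where it was higher. Of the 8880 genes measured in this class, 1.18% were at least 1.5 times higher in Tom+ and 1.07% at least 1.5 times lower; the median log2 ratio of the 8 genes was -0.01, against 0.00066 over all genes. Igfbp5 was past 1.5 times under each of the 16 alternatives (2 of them chosen after seeing the data), Igfbp2 under 14 and Igfbp3 under 12.

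Igfbp5 stood at 223 CPM (1450 UMIs, Tom+) and 467 CPM (20779 UMIs, Tom-) in fibroblast-like cells. Its ratio of Tom+ to Tom- was 0.478 (95% interval 0.453 to 0.504), and 0.325 (0.303 to 0.347) without barcodes found in both libraries. A UMI was seen in 17.2% of Tom+ and 35.6% of Tom- cells, and in 8.68% and 18.1% after thinning each cell to 2000 UMIs. Fewer cells with the transcript thus went with the lower level. Markers of the 2 compared classes richest in Igfbp5 were also lower in Tom+: the 7 mesothelial markers summed to 44.7 CPM (Tom+) and 70.6 CPM (Tom-), none at 0, and the 6 lymphatic endothelial ones to 3.85 and 23.4 CPM, with Prox1 at 0 in Tom+. The 5 erythroid markers summed to 48.5 CPM (Tom+) and 481 CPM (Tom-), none at 0. The part of RNA from these cells in the Igfbp5 difference was not tested, and with 5% free RNA subtracted its log2 ratio was -1.12.

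Igfbp3 stood at 81.0 CPM (526 UMIs, Tom+) and 50.5 CPM (2247 UMIs, Tom-) in fibroblast-like cells, with a Tom+ to Tom- ratio of 1.60 (1.46 to 1.77). A single Tom+ cell, in the sub-cluster led by Fam167a and Tmem100, held 138 of the 526 UMIs. Without the cell with most Igfbp3 UMIs in each library the ratio was 1.27 (1.14 to 1.42), which is under 1.5 times. Cells with a UMI made up 9.79% of Tom+ and 11.5% of Tom- cells, and 6.36% and 5.05% after thinning. Without barcodes found in both libraries the ratio was 1.83 (1.66 to 2.02). Reaching 1.5 times thus depended on 1 cell, and the shares of cells took opposite orders before and after thinning.

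Igfbp2 stood at 9.40 CPM (61 UMIs, Tom+) and 18.3 CPM (813 UMIs, Tom-) in fibroblast-like cells, with a Tom+ to Tom- ratio of 0.514 (0.390 to 0.668). These levels were 0.397% of the highest class in Tom+ and 0.739% in Tom-. Cells with a UMI made up 7.72% (Tom+) and 17.2% (Tom-) of the fibroblast-like class, against 8.99% and 13.2% of lymphatic endothelial-like cells, whose median depths were 4243 and 5812 UMIs. After thinning the fibroblast-like shares were 1.55% and 4.34%, below the lymphatic ones of 5.13% and 5.00%. The 7 basal urothelial markers summed to 32.2 CPM (Tom+) and 63.4 CPM (Tom-) in fibroblast-like cells, with Krt14 and Krt17 at 0 in Tom+; the part of free urothelial RNA in the Igfbp2 difference was not tested. With an assumed 5% of the library's own profile subtracted, Igfbp2 was at 0 in both libraries.

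The other 5 genes lay within 1.5 times of each other in the 2 libraries. Igf1 stood at 136 CPM (885 UMIs, Tom+) and 112 CPM (4973 UMIs, Tom-) in fibroblast-like cells, with a Tom+ to Tom- ratio of 1.22 (1.13 to 1.31). Without barcodes found in both libraries the levels were 97.4 CPM (Tom+) and 108 CPM (Tom-), and the ratio turned to 0.899 (0.823 to 0.982). No direction can therefore be given for the ligand. Igf1r stood at 128 and 120 CPM (ratio 1.07, 0.997 to 1.16), Igfbp4 at 667 and 781 CPM (0.854, 0.828 to 0.882), Igfbp6 at 1647.5 and 1647.2 CPM (interval of the ratio 0.980 to 1.02) and Igfbp7 at 1771 and 1805 CPM (0.981, 0.962 to 1.001).

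**Figure D3:**
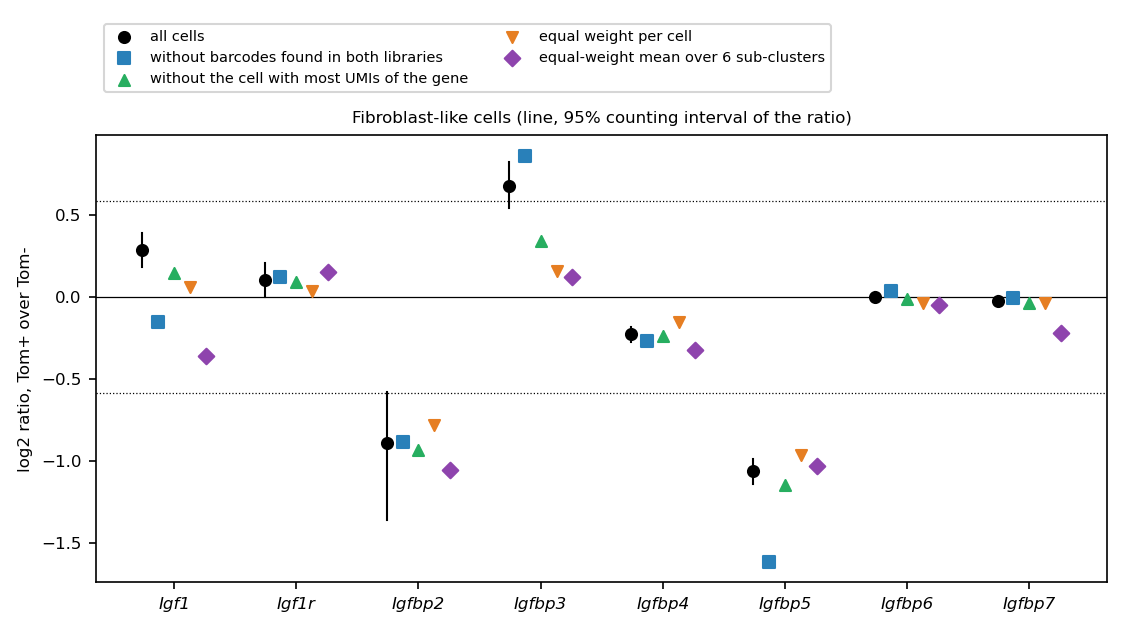
Log2 ratio of Tom+ to Tom- in fibroblast-like cells (vertical axis) for each of the 8 genes, with the 95% counting interval for all cells (black line), under 5 ways of summing; dotted lines mark 1.5 times. Igfbp5 and Igfbp2 stay below the lower line in all 5, Igfbp3 lies under the upper line in 3, and Igf1 lies on both sides of 0.

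Fibroblast-like cells formed 8 sub-clusters, made without the IGF genes, tdTomato or Cdkn2a among the variable genes, and 6 of them had at least 30 cells of each library. Their shares differed: the sub-cluster led by Dner and Kcnn3 held 32.0% (Tom+) and 14.6% (Tom-) of the fibroblast-like class, and the one led by Cxcl14 and Cck held 6.34% and 22.8%. Among these 6, Igf1 was highest in the sub-cluster led by Sfrp4, Eln and Mfap4, at 442 CPM (Tom+) and 381 CPM (Tom-). It was almost absent from the Cxcl14 Cck sub-cluster, at 2.15 CPM (1 UMI, Tom+) and 9.94 CPM (Tom-). Of the 104 Tom+ cells of the Sfrp4 sub-cluster, 12 had barcodes found in both libraries, and without these Igf1 there was 285 CPM (Tom+) and 380 CPM (Tom-). With Tom- levels weighted by the Tom+ UMIs, not cells, of each sub-cluster, Igf1 would be at 135.9 CPM, beside 136.4 CPM (Tom+) and 111.8 CPM (Tom-).

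Igfbp5 was lower in Tom+ in 5 of the 6 sub-clusters and higher in 1. In the Apoe Lsamp and Sfrp4 sub-clusters it was lower by under 1.5 times. The ratios there were 0.688 (0.436 to 1.04) and 0.695 (0.583 to 0.825). Igfbp5 was 350 CPM (Tom+) against 904 CPM (Tom-) in the Fam167a Tmem100 sub-cluster, and 3.29 against 39.1 CPM in the Dner Kcnn3 sub-cluster (6 and 185 UMIs). In the sub-cluster led by Bglap2, Pex5l and Npy1r it was higher, 419 CPM (Tom+) against 181 CPM (Tom-), where 1 Tom+ cell held 90 of 288 UMIs. The Dpp4 Smpd3 sub-cluster, which has Igfbp5 among its leading genes, held the most of it, 2211 CPM in its 12 Tom+ and 2673 CPM in its 169 Tom- cells. Of these cells, 5 in Tom+ and 1 in Tom- had barcodes found in both libraries. Without them Igfbp5 there was 2074 CPM (Tom+) and 2676 CPM (Tom-). The Dpp4 Smpd3 sub-cluster made up 1.66% (Tom+) and 4.26% (Tom-) of the fibroblast-like class. The equal-weight mean of the log2 ratio over the 6 sub-clusters was -1.03, against -1.06 over all cells of the class. This mean leaned on the Dner Kcnn3 sub-cluster, at -3.23 on its 6 Tom+ UMIs, while the other 5 ran from -1.75 to 1.21. With Tom- levels weighted by the Tom+ UMIs of each sub-cluster, Igfbp5 would be at 348 CPM, beside 223 CPM (Tom+) and 467 CPM (Tom-). The mix of sub-clusters thus moved with part of the difference.

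Igfbp4 was slightly lower in Tom+ in all 6 sub-clusters, with log2 ratios from -0.43 to -0.19, and Igfbp7 likewise, from -0.48 to -0.06. None of these reached 1.5 times. Igfbp6 was lower in 5 and higher in 1, the Sfrp4 sub-cluster, at 2034 CPM (Tom+) and 1524 CPM (Tom-). Among the 6, Igfbp3 was highest in different sub-clusters in the 2 libraries: 157 CPM in Tom+ in the Fam167a Tmem100 sub-cluster, of which 1 cell gave 138 of 195 UMIs, and 141 CPM in Tom- in the Apoe Lsamp sub-cluster, where 1 cell gave 146 of 502. In the Dner Kcnn3 sub-cluster Igfbp3 was 56.4 CPM (Tom+) against 25.6 CPM (Tom-), with 35 of 103 Tom+ UMIs from 1 cell. A shallow sub-cluster with a median of 2050 UMIs was led by the endothelial genes Ctla2a and Ptprb. Its next leading genes were Apod, Sult1e1, Penk, Gpx3, Igfbp3 itself, Hbb-bt, Cilp and Abtb1. All of its 27 Tom+ cells and 108 of its 188 Tom- cells had barcodes found in both libraries. Its Igfbp3 was 29.9 CPM (1 UMI, Tom+) and 484 CPM (Tom-). Its Igf1 was 538 CPM (18 UMIs, Tom+) and 696 CPM (Tom-), above the Sfrp4 sub-cluster in both. The Tom+ interval of 319 to 851 CPM included the Tom+ Sfrp4 level of 442 CPM. Without barcodes found in both libraries, the Tom- levels of the shallow sub-cluster were 769 CPM of Igfbp3 and 788 CPM of Igf1, and no Tom+ cell was left.

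**Figure D4:**
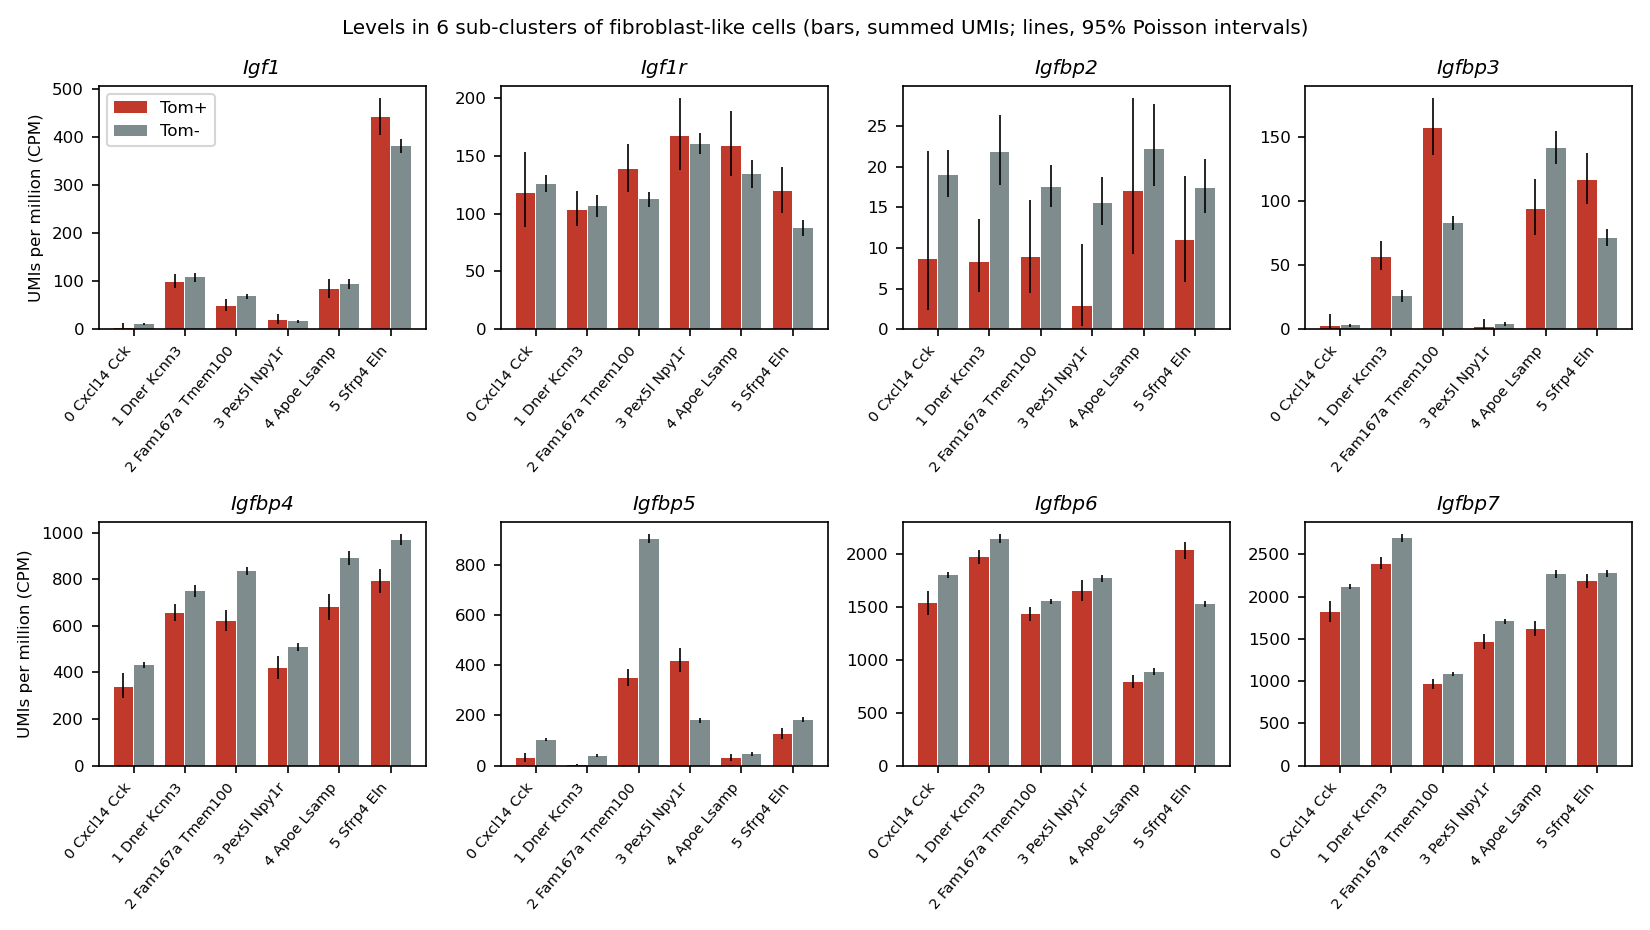
CPM of each of the 8 genes (vertical axes, linear, each from 0) in the 6 sub-clusters of fibroblast-like cells with at least 30 cells of each library, Tom+ left of Tom-, with 95% Poisson intervals as lines. Igf1 peaks in the Sfrp4 Eln sub-cluster in both libraries, and Igfbp5 is higher in Tom+ only in the Pex5l Npy1r sub-cluster among the 6.

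In blood endothelial-like cells, Igf1 and Igfbp2 were higher and Igfbp3, Igfbp5 and Igfbp6 lower in Tom+ by at least 1.5 times, among 8 measured. Of 9074 measured genes, 3.25% were higher and 8.89% lower by that size. The same clusters made up the class in both libraries but in different shares: the one led by Selp and Vwf held 134 of 174 Tom+ and 289 of 689 Tom- cells. Igfbp3 was 199 CPM (Tom+) and 526 CPM (Tom-) over the class, a ratio of 0.379 (0.338 to 0.423), and 0.441 without barcodes found in both libraries. Within clusters it was 40.3 CPM (Tom+) and 34.3 CPM (Tom-) in the Selp Vwf cluster, 965 and 1494 CPM in the Esm1 Flt1 cluster, and 888 and 542 CPM in the Fabp4 Sema3g cluster (14 Tom+ and 198 Tom- cells). The class difference thus had no common direction within clusters, and the shares of clusters moved with it.

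Igfbp2 was 324 CPM (Tom+) and 197 CPM (Tom-) in blood endothelial-like cells, a ratio of 1.64 (1.48 to 1.82). Without barcodes found in both libraries the ratio was 0.950 (0.828 to 1.09), and in the Selp Vwf cluster, which held 573 of the 576 Tom+ UMIs, the levels were 391 and 360 CPM. With doublets kept the ratio was 1.26. Igf1 was 40.5 CPM (72 UMIs, Tom+) and 21.5 CPM (Tom-), a ratio of 1.88 (1.38 to 2.55). Within clusters its ratio was 1.30 (0.911 to 1.84) in the Selp Vwf cluster, which held 58 of the 72 Tom+ UMIs, 0.694 (0.0781 to 2.90) in the Esm1 Flt1 cluster, and 10.4 (4.45 to 23.8) in the Fabp4 Sema3g cluster on 12 Tom+ UMIs. Igfbp5 was 11.3 and 45.9 CPM (0.245, 0.147 to 0.387) and Igfbp6 8.44 and 46.8 CPM (0.180, 0.0994 to 0.303), all under 5% of the highest class. The 8 fibroblast markers summed to 157 CPM (Tom+) and 888 CPM (Tom-) in blood endothelial-like cells, none at 0, and the 7 basal urothelial markers to 919 and 505 CPM, with Krt14 and Krt17 at 0 in Tom+. The part of RNA from these cells in the differences was not tested.

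In basal or intermediate urothelial-like cells, Igfbp5 and Igfbp6 were higher in Tom+ and no measured member was lower, among 7 measured. Over all 8110 measured genes, 1.38% were higher and 0.506% lower by 1.5 times. Igfbp5 was 292 CPM (Tom+) and 89.4 CPM (Tom-), a ratio of 3.26 (3.02 to 3.52), although it was seen in 69.6% of Tom+ and 75.6% of Tom- cells and 1 Tom+ cell held 246 of 1230 UMIs. The ratio was 1.98 (1.79 to 2.19) without barcodes found in both libraries, and 1.01 where doublets were kept and the cells clustered with them. Igfbp6 was 143 CPM (Tom+) and 67.9 CPM (Tom-), a ratio of 2.11 (1.91 to 2.33), which was 1.40 without those barcodes and 0.299 with doublets kept. These Igfbp6 levels were under 5% of the highest class in both libraries. The 8 fibroblast markers summed to 1062 CPM (Tom+) and 545 CPM (Tom-) in this class, none at 0. Dcn alone gave 940 CPM (Tom+) and 366 CPM (Tom-) of these sums, so the higher Tom+ sum came from this 1 gene. The part of fibroblast RNA in the differences was not tested.

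In mesothelial-like cells, Igfbp2 was higher and Igfbp3 lower in Tom+ among 8 measured, where 1.56% of 8854 genes were higher and 1.34% lower. Igfbp2 was 58.4 CPM (Tom+) and 22.3 CPM (Tom-), a ratio of 2.61 (2.18 to 3.12). It was 5.62 (4.64 to 6.78) without barcodes found in both libraries, which were 63 of 158 Tom+ and 11 of 772 Tom- cells, and 0.671 with doublets kept. Igfbp3 was 5.05 CPM (16 UMIs, Tom+) and 11.7 CPM (Tom-). These levels were all under 5% of the highest class. The 2 mesothelial clusters differed in direction for Igfbp2: it was 90.5 CPM (178 UMIs, Tom+) and 26.0 CPM (221 UMIs, Tom-) in the one led by Saa3, and 5.83 CPM (7 UMIs, Tom+) and 18.5 CPM (152 UMIs, Tom-) in the one led by Prg4. Igfbp5 and Igfbp6, the binding proteins with the highest levels in this class, lay between 1.5 times lower and 1.5 times higher.

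In lymphatic endothelial-like cells no member was higher and Igfbp3 was lower in Tom+ among 8 measured, while 8.31% of 8175 genes were higher and 11.9% lower. Igfbp3 rested on 12 UMIs (26.7 CPM) in Tom+ and 51 UMIs (42.4 CPM) in Tom-, and its interval of 0.306 to 1.20 included 1. Igfbp4 was 454 CPM (Tom+) and 326 CPM (Tom-) (1.39, 1.17 to 1.65). In umbrella urothelial-like cells no member was higher and Igfbp6 was lower among 5 measured, with 0.0266% of 7521 genes higher and 0.372% lower. Igfbp6 was 2.78 CPM (Tom+) and 14.4 CPM (Tom-), under 5% of the highest class, and the 8 fibroblast markers summed to 60.2 and 283 CPM there, none at 0; their part was not tested. Igfbp5 in umbrella urothelial-like cells was 22.8 CPM (Tom+) and 31.8 CPM (Tom-), also under 5% of the highest class, a ratio of 0.717. It passed 1.5 times lower without barcodes found in both libraries (0.643) and with doublets kept (0.468). Of the 14 differences of at least 1.5 times in the 6 classes, 7 lay under 5% of the highest class in both libraries.

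**Figure D5:**
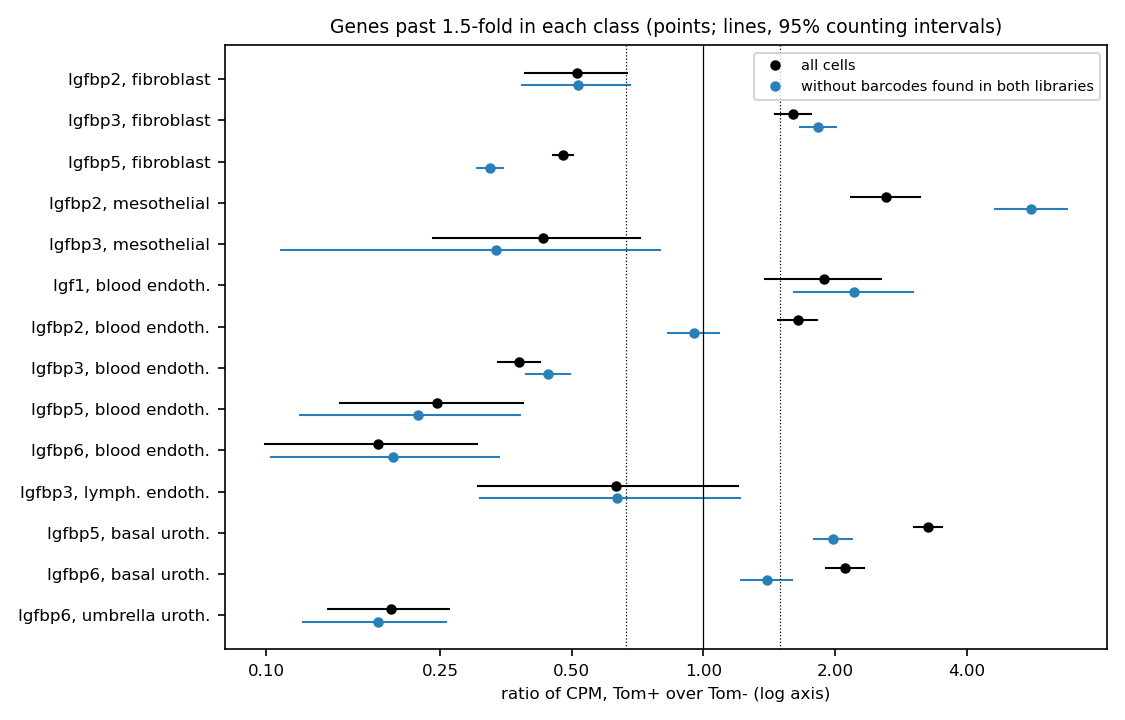
Ratio of CPM in Tom+ to CPM in Tom- (horizontal log axis) for each gene that differed by at least 1.5 times in a class, with 95% counting intervals, for all cells (black) and without barcodes found in both libraries (blue); dotted lines mark 1.5 times. Igfbp5 in fibroblast-like cells lies at 0.478 and 0.325, while Igfbp2 in blood endothelial-like cells lies at 1.64 and 0.950.

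Elsewhere in the pathway, 3 genes of the lists beside the 8 reached 1.5 times in fibroblast-like cells, all higher in Tom+. Of 18 proteases of binding proteins and their inhibitors, 13 were measured, 2 were higher and none lower, beside 1.18% higher and 1.07% lower over all measured genes of the class. Stc2, a secreted inhibitor of the proteases Pappa and Pappa2, was 48.2 CPM (313 UMIs, Tom+) and 16.6 CPM (740 UMIs, Tom-) (ratio 2.90, 2.53 to 3.31). Pappa2, a protease that cleaves Igfbp3 and Igfbp5, was 15.1 CPM (98 UMIs, Tom+) and 5.62 CPM (250 UMIs, Tom-) (2.69, 2.11 to 3.41). Stc2 was also among the leading genes of the Dner Kcnn3 sub-cluster, whose share was larger in Tom+. C1s1, a complement protease whose human counterpart cleaves IGFBP5, had the highest level of this list, at 793 and 817 CPM.

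Of 12 receptors and docking proteins, 9 were measured, 1 was higher and none lower, beside the same shares over all genes. Prlr, the prolactin receptor, was 11.2 CPM (73 UMIs, Tom+) and 5.51 CPM (245 UMIs, Tom-) (2.04, 1.55 to 2.66), and Lrp1, a scavenger receptor, had the highest level at 701 and 595 CPM. Of 13 other ligands and binding proteins, 5 were measured and none reached 1.5 times; Ctgf, a matricellular protein now called Ccn2, was highest at 122 CPM (Tom+) and 125 CPM (Tom-). Igf2 had 2 UMIs in Tom+ and 6 in Tom-, and Igfbp1 had none in either, which allows up to 0.462 and 0.0674 CPM. Of 20 genes of growth hormone and PI3K-FOXO signalling, 18 were measured and none reached 1.5 times, with Txnip highest at 556 CPM (Tom+) and 630 CPM (Tom-). None of the 3 messenger-binding proteins was measured.

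The genes most alike in level to each member over 24 clusters of at least 50 cells, both libraries summed, are given as a description, since the clusters share libraries and animal. By Pearson's r of log2(CPM + 1), Igf1 was nearest to Nid1 (0.86), Fbn1 (0.85) and Eln (0.83), and Igfbp4 to Dpysl2 (0.91), Adamts10 (0.91) and Fbn1 (0.91). Igfbp2 was nearest to Ly6d, Aqp3 and Acaa1b (all 0.98), and Igfbp6 to Dcn (0.98), Bicc1 (0.96) and Ptgis (0.95). The other 4 had looser neighbours: Igfbp7 with Trafd1 (0.87) and Mosmo (0.85), Igf1r with Snhg20 (0.83), Rnf167 (0.83) and Mut (0.82), Igfbp5 with Ccl7 (0.79), Plce1 (0.78) and Tmeff2 (0.76), and Igfbp3 with Hecw2 (0.75), Penk (0.75) and Srgn (0.73).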

How the data were processed

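Cell Ranger 7.0.0 and mm10 are named in the submitters' processing notes; the matrix headers carry software version 3.0.2. The authors deposited raw UMI counts per gene and barcode, 1 matrix per library. Cells with at least 1000 UMIs, 500 genes and under 15% mitochondrial UMIs were kept, and Scrublet called 10 Tom+ (0.528%) and 690 Tom- (6.51%) doublets, which were left out. Cells of both libraries were clustered together without integration (scanpy 1.11.5, 2000 variable genes, 30 components, 15 neighbours, Leiden resolution 1). The IGF genes under their listed symbols, tdTomato and Cdkn2a were kept out of the variable genes; the 5 Ccn genes, present under older symbols, were matched later through the RefSeq gene table and were not kept out. A name needed a marker level, scaled from 0 to 1 over clusters, of at least 0.5 and at least 3 markers each in 25% of cells, a rule set after seeing the data. Levels under 5% of the highest class are marked in the text.

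UMIs were summed per class and library and scaled to CPM. Log2 ratios carry 1 CPM added, which understates changes of low genes. Ratios do not, except those with doublets kept, which were taken from the log2 ratios. The 95% intervals of ratios come from the binomial distribution conditional on the summed UMIs (exact). For a sum the interval is exact Poisson. Where no UMI was seen, 3 counts set the upper limit. Comparison needed 50 cells of a class, or 30 of a sub-cluster, from each library. Named were the 8 members, pathway-list genes past 1.5 times and the highest gene of each list in fibroblast-like cells, and the 3 genes most alike to each member, of which 1 is not reported here. The members, lists and markers were chosen with earlier results of these data known. The calculation was tested on simulated data. TMM factors came from edgeR 4.0.16. Promoter windows are from RefSeq and gene positions from GENCODE M21.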

Additional observations from a re-analysis of the deposited data

Results flagged for a closer look

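For 4 binding proteins the difference between Tom+ and Tom- had 1 direction in some classes and the other direction in other classes, each by at least 1.5 times. The share of all measured genes that did the same was not counted, so whether 4 is many cannot be told. Per class and direction, from 0.0266% to 11.9% of measured genes reached 1.5 times. With 1 library per group, none of these contrasts between classes was tested, and several did not keep their direction or size under another processing. Igfbp2 had a log2 ratio of Tom+ to Tom- of 0.71 in blood endothelial-like and 1.35 in mesothelial-like cells, against -0.89 in fibroblast-like cells. The ratio in blood endothelial-like cells was 0.950 without barcodes found in both libraries, and that in mesothelial-like cells was 0.671 with doublets kept. Igfbp3 had a log2 ratio of 0.67 in fibroblast-like cells, against -1.40 in blood endothelial-like, -0.65 in lymphatic endothelial-like and -1.07 in mesothelial-like cells. The ratio in fibroblast-like cells was 1.27 without the cell with most UMIs, and the interval in lymphatic endothelial-like cells (0.306 to 1.20) included 1. Igfbp5 had a log2 ratio of 1.69 in basal or intermediate urothelial-like cells, against -1.94 in blood endothelial-like and -1.06 in fibroblast-like cells. The basal or intermediate ratio was 1.01 with doublets kept. Igfbp6 had a log2 ratio of 1.07 in basal or intermediate urothelial-like cells, against -2.34 in blood endothelial-like and -2.03 in umbrella urothelial-like cells. The basal or intermediate ratio was 0.299 with doublets kept.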

How the results depend on the processing

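In fibroblast-like cells the count of members at least 1.5 times higher in Tom+ was 1, and 0 with equal weight per cell, with cells thinned to 2000 UMIs, with the equal-weight mean over sub-clusters and, chosen after seeing the data, without the cell holding most UMIs of the gene. The count of members at least 1.5 times lower was 2, and 1 with 5% free RNA subtracted or a filter of 50 CPM, where Igfbp5 was the one left. The log2 ratio of Igfbp5 ran from -1.62 without barcodes found in both libraries to -0.70 with the Car3 Dkk2 Tnc clusters counted in. The count over the other 5 classes was 11, and 5 with a filter of 50 CPM. The direction reversed in 3 of the differences of at least 1.5 times: with doublets kept, Igfbp6 in basal or intermediate urothelial-like cells (log2 ratio -1.74) and Igfbp2 in mesothelial-like cells (-0.58), and without barcodes found in both libraries, Igfbp2 in blood endothelial-like cells (-0.073). Igf1 in fibroblast-like cells, which was under 1.5 times, also turned (ratio 0.899 without those barcodes; log2 ratio -0.36 as the equal-weight mean over sub-clusters). The causes were not tested. With doublets kept, Igfbp6 was lower still in blood endothelial-like (-3.90) and umbrella urothelial-like cells (-3.15). No paired analysis was possible because each group was 1 library. Reads were sampled once from 1 animal, so intervals do not cover variation between animals, sorts or libraries.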
